A study of Homo sapiens with 6 samples.

Results

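Synthetic miR-324 duplexes of both arms were pooled and set against a control miRNA in A172 cells, an established human glioblastoma line. Polyadenylated RNA was sequenced in 6 libraries: 2 from cells given the control miRNA, 2 from cells given a miR-324-5p duplex (5p duplex) and 2 from cells given a miR-324-3p.1 duplex (3p.1 duplex). All 6 libraries came from cells of this 1 line that were transfected with Lipofectamine and harvested after 1 day. With no untransfected library among the 6, a level lowered by the duplexes and a level raised by the control oligonucleotide cannot be told apart. The labels do not say that replicates came from separate cultures, so the spread between them may be technical.

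Expression was given as TPM, transcript abundance corrected for transcript length and library total, and 13400 genes had a mean of at least 1 TPM. Members of the pooled comparison were the genes that stood lower, or higher, in all 4 duplex libraries than in both control libraries. There were 1999 such genes, 14.9% of those tested. Of these, 1424 (10.6% of the genes tested) stood lower and 575 (4.29%) stood higher. These shares describe the whole transcriptome and carry no test, and counts for gene groups are read against them. Were the 6 libraries interchangeable, a gene would be separated in one direction or the other with a probability of 0.133. Membership alone therefore does not show that a gene differed. The split depended on the scale: 71.2% of members were lower on the TPM scale, and after median-of-ratios scaling 51.1% were lower (1040 lower and 995 higher). At the edge of the rule, PCSK4 was kept with a mean of 1.00 TPM (controls 1.06 and 1.24 TPM, highest duplex library 1.04 TPM), and SYCP2L was kept with a mean of 1.08 TPM. Just outside it, LOC101928120 had a mean of 0.993 TPM and TAS2R19 a mean of 0.883 TPM. A further 529 lower and 117 higher genes met the rule on order but had means under 1 TPM.

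MicroRNAs are short RNAs that guide Argonaute proteins to partly complementary sites, mostly in the 3′ untranslated regions of mRNAs, and lower the level or translation of those mRNAs. The bases near the 5′ end, the seed, carry most of the pairing. A microRNA hairpin yields a duplex whose arms, 5p and 3p, have different seeds, and the choice between them decides which mRNAs are bound. Transfected double-stranded RNA can also be read by sensors of viral RNA such as RIG-I and MDA5, which signal through kinases and IRF transcription factors to type I interferon. Interferon then acts through its receptor, JAK kinases and transcription factors that include STAT2 and IRF9 on a set of antiviral genes. The sequences of the mature arms show that they share no seed. They are taken from RefSeq on GRCh38.p14, where miR-324-5p lies at chr17:7223343-7223364 and miR-324-3p at chr17:7223308-7223330, both on the minus strand. Capitals mark bases 2 to 8, the seed. What the 3p.1 duplex reads base by base is not in the labels, so the RefSeq 3p arm stands in for it.
hsa-miR-324-5p: cGCAUCCCcuagggcauuggug
hsa-miR-324-3p: cCCACUGCcccaggugcugcugg

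Most members differed little. Among the lower members the median size of the log2 difference was 0.28 (interquartile range 0.19 to 0.41), and 167 of the 1424 stood at least 1.5-fold below the controls. Higher members were smaller still, with a median of 0.16 and 19 of the 575 at least 1.5-fold above the controls. These counts, and every count of members past a fold, use the difference of mean log2(TPM + 1); folds of single genes are ratios of mean TPM. On that log2 scale 74 lower members stood at least 2-fold below the controls, and 55 of these were on 9 lists of interferon-pathway genes. By the ratio of mean TPM the counts were 96 and 60. Of the 13 members that stood at least 2-fold higher, 12 were small RNAs or read-through transcripts and the other was STK38L. A limma model of the 3 group means was fitted to log2(TPM + 1) of all genes. In it 4 genes fell (0.0299% of those tested) and 2 rose (0.0149%) in the pooled contrast at an adjusted p under 0.05. An unadjusted p under 0.05 was reached by 934 genes that were lower (6.97%) and 174 that were higher (1.3%).

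Most sensors at the start of the interferon pathway and most of its antiviral effectors stood lower with both duplexes. Most of the listed kinases, receptors and transcription factors between them overlapped the controls. The 9 lists name 145 genes, of which 133 were measured. Of these 133, 95 stood lower in all 4 duplex libraries (71.4%, against 10.6% of all genes tested), 38 overlapped the controls and 0 stood higher. Their median log2 difference was -0.78, beside -0.03 over all genes tested. In the limma model 0 of the 133 passed at an adjusted p under 0.05, while 95 had an unadjusted p under 0.05, all of them lower. This call depended on the model. With replicate numbers as a block 24 of the 133 were called lower, among them IRF9, IFITM1, IFI6, IFI27 and BST2, each at an adjusted p of 0.0281. With the duplexes as 1 group 4 were called lower, IRF9, IFITM1, IFI6 and IFI27, each at an adjusted p of 0.0308. The lists were drawn up with earlier results of these data known.

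Both controls stood above the duplex libraries, but they did not stand together. Over the 68 antiviral and other interferon-stimulated effector genes, the median log2 difference of control replicate 2 from control replicate 1 was 1.09, and 65 of the 68 were higher in replicate 2. The same genes differed by -0.20 between the 5p duplex replicates and by -0.02 between the 3p.1 duplex replicates. Against control replicate 1 alone the median duplex difference of these effectors was -0.81, and against replicate 2 alone it was -1.92. Left with control replicate 2 alone, the model called 68 of the 133 interferon-list genes lower; left with replicate 1 alone, it called 6. In these 2 fits the lone control is assumed to vary like the other groups. What set the controls apart was not tested.

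**Figure D1:**
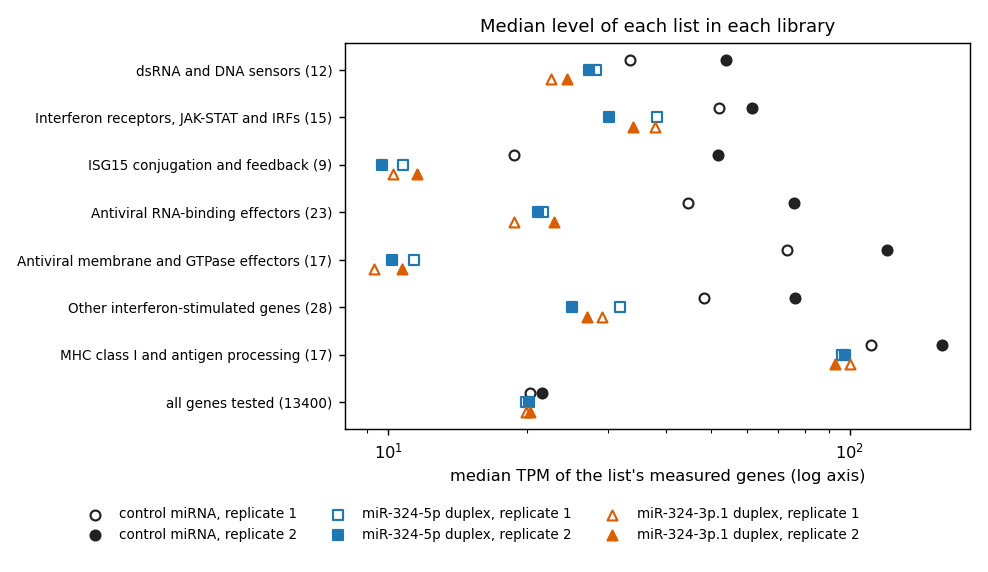
Median TPM of the measured genes of 7 interferon lists and of all genes tested (log axis), 1 point per library, with the number of genes in brackets. In each of the 7 lists both controls sit above the 4 duplex libraries and control replicate 2 sits above replicate 1, while the 6 medians of all genes tested lie close together.

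Among sensors of foreign nucleic acid, 8 of 12 measured genes stood lower in all 4 duplex libraries (66.7%) and 0 stood higher. The list's median log2 difference was -0.76. IFIH1, which encodes the double-stranded RNA sensor MDA5, stood at 12.8 and 47.8 TPM in the control libraries, 3.72 and 2.26 TPM with the 5p duplex, and 3.87 and 3.26 TPM with the 3p.1 duplex. Both controls thus lay more than 3-fold above the highest duplex library. DDX58, which encodes RIG-I, stood at 35.1 and 136 TPM in the control libraries, 16.0 and 12.7 TPM with the 5p duplex, and 13.9 and 15.7 TPM with the 3p.1 duplex. DHX58, whose product LGP2 modulates both of those sensors, stood at 12.8 and 24.7 TPM in the control libraries and between 4.61 and 5.64 TPM in the 4 duplex libraries. TLR3, the endosomal receptor for double-stranded RNA, had the narrowest gap of the 4, with 7.10 and 22.5 TPM in both control libraries and 3.65 to 5.59 TPM in the duplex libraries. The DNA sensor IFI16 stood at 287 and 492 TPM in both control libraries and at 177 to 212 TPM with the duplexes. TRIM25, a ubiquitin ligase that activates RIG-I, stood at 73.6 and 129 TPM in both control libraries and at 57.5 to 68.6 TPM with the duplexes. Log2 differences of these 6 genes ran from -2.62 (SE 0.47) for IFIH1 to -0.67 (SE 0.22) for TRIM25, with limma adjusted p from 0.125 to 0.455. The adaptors stood apart from the sensors: MAVS differed by -0.09, TICAM1 by -0.28 and TMEM173 by -0.18, and all 3 overlapped the controls. TMEM173, which encodes STING, and TICAM1 were the genes of the 9 lists that overlapped by the least; B2M and EIF2AK2 were the members separated by the least.

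The kinases and transcription factors downstream of the sensors were mostly level. Of 12 measured, 2 stood lower in all 4 duplex libraries (16.7%) and 0 higher, and the list's median log2 difference was -0.05. IRF7, the interferon-inducible factor that amplifies interferon gene transcription, stood at 4.42 and 10.9 TPM in the control libraries, 1.12 and 0.90 TPM with the 5p duplex, and 1.10 and 1.24 TPM with the 3p.1 duplex (log2 difference -1.95, SE 0.30, limma adjusted p = 0.126). IRF3, the constitutive factor of the pathway, was also separated but by little: 42.4 and 42.7 TPM in both control libraries and 35.6 to 38.8 TPM with the duplexes. The kinase IKBKE overlapped, with 13.7 and 10.4 TPM in both control libraries and 7.35 to 10.8 TPM with the duplexes. TRAF3, IRF5 and JUN overlapped as well, with log2 differences of 0.10, -0.17 and 0.13.

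Interferon transcripts themselves were near the floor of the measurement, and 0 of the 9 ligand genes listed had a mean of 1 TPM. IFNB1, the gene of interferon beta, was listed at 0.13 and 0.82 TPM in the control libraries, at 0 in both 5p duplex libraries, and at 0.31 TPM in 1 of the 3p.1 duplex libraries and 0 in the other. These groups overlap. IFNL1 was listed only in control replicate 2, at 0.28 TPM. The interferon-inducible chemokines CXCL10 and CXCL11 were also low. CXCL10 stood at 0.64 and 3.09 TPM in both control libraries and at 0 to 0.04 TPM with the duplexes, and CXCL11 at 0.22 and 1.11 TPM against 0.03 to 0.19 TPM.

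Receptors and JAK kinases did not separate from the controls, whereas transcription factors downstream of them did. Of 15 measured genes in this list, 5 stood lower (33.3%), among them STAT2, IRF9, IRF1 and IRF2, and 0 stood higher. IFNAR1, a chain of the type I interferon receptor, stood at 55.1 and 61.9 TPM in both control libraries and at 55.0 to 62.9 TPM with the duplexes. Its log2 difference was -0.02 and changed sign under quantile normalization (0.01) and median-of-ratios scaling (0.02). JAK1 differed by -0.003 and TYK2 by -0.08, and both overlapped. IRF9, the DNA-binding partner of the STATs, stood at 55.2 and 69.2 TPM in the control libraries, 21.9 and 17.9 TPM with the 5p duplex, and 24.3 and 18.4 TPM with the 3p.1 duplex. IRF9 was thus 3.02-fold lower on average with the duplexes (log2 difference -1.55, SE 0.16, limma adjusted p = 0.0657), and its controls stood closer together than those of most effectors. STAT2 stood at 40.8 and 89.3 TPM in both control libraries and at 23.3 to 29.4 TPM with the duplexes. The log2 difference of STAT2 was -1.19 (SE 0.28), with a limma adjusted p of 0.27. IRF1 and IRF2 stood lower by 0.51 and 0.58 on the log2 scale. STAT3 overlapped, with 101 and 117 TPM in both control libraries and 80.4 to 105 TPM with the duplexes.

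ISG15 is a ubiquitin-like protein that is attached to other proteins by a dedicated enzyme chain, and its gene is a classic interferon target. Of 9 measured genes for that chain and for feedback on the pathway, 7 stood lower (77.8%) and 0 higher. ISG15 stood at 91.5 and 289 TPM in the control libraries, 21.6 and 18.9 TPM with the 5p duplex, and 20.1 and 17.2 TPM with the 3p.1 duplex. The mean was 9.79-fold lower with the duplexes (log2 difference -3.01, SE 0.41, limma adjusted p = 0.109). The chain members UBA7 (E1 enzyme), UBE2L6 (E2 enzyme) and HERC5 (E3 ligase) stood lower by 0.90, 1.03 and 1.5 on the log2 scale, each without overlap. USP18, which removes ISG15 and also blocks the interferon receptor, stood at 20.6 and 82.5 TPM in the control libraries, 3.70 and 2.93 TPM with the 5p duplex, and 6.19 and 5.69 TPM with the 3p.1 duplex. Its level with the 5p duplex was below that with the 3p.1 duplex in every library, with a log2 difference of -0.69 (SE 0.56, limma adjusted p = 0.805). That SE takes in the spread between the controls. HERC6 stood at 18.7 and 69.8 TPM in both control libraries and at 3.89 to 6.13 TPM with the duplexes.

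Effectors that bind viral RNA had the lowest median of the lists described. Of 23 measured, 19 stood lower (82.6%) and 0 higher, and the median log2 difference was -1.71. OAS1 and OAS2 encode oligoadenylate synthetases, which switch on RNase L when they bind double-stranded RNA. OAS2 stood at 58.2 and 248 TPM in the control libraries, 9.37 and 5.06 TPM with the 5p duplex, and 5.11 and 6.11 TPM with the 3p.1 duplex. OAS1 had the same order, with 62.3 and 224 TPM in both control libraries and 4 to 9.96 TPM with the duplexes. OASL, the family member without synthetase activity, stood at 11.6 and 43.3 TPM against 0.96 to 2.35 TPM. IFIT1, which binds viral RNA 5′ ends, stood at 80.7 and 328 TPM in the control libraries, 12.4 and 7.54 TPM with the 5p duplex, and 8.83 and 13.02 TPM with the 3p.1 duplex. IFIT2 and DDX60 were also separated, with duplex ranges of 3.53 to 4.39 TPM and 3.27 to 5.29 TPM and lower control values of 14.5 and 12.5 TPM. For these 6 genes the means were 5.00-fold (DDX60) to 23.9-fold (OAS2) lower with the duplexes, and limma adjusted p ran from 0.109 to 0.156.

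Antiviral proteins of membranes and large GTPases stood lower in 14 of 17 cases (82.4%), with 0 higher and a median log2 difference of -1.245. IFITM1, which blocks fusion of enveloped viruses, reached 92.8 and 321 TPM in the control libraries, 8.67 and 5.92 TPM with the 5p duplex, and 7.95 and 8.69 TPM with the 3p.1 duplex. Its mean was 26.5-fold lower with the duplexes (log2 difference -4.32, SE 0.46, limma adjusted p = 0.0661). The related IFITM3 was far more abundant and separated by less, at 1129 and 1776 TPM in both control libraries and 552 to 693 TPM with the duplexes. IFI6, a mitochondrial and endoplasmic reticulum protein that limits flavivirus replication, stood at 80.6 and 220.4 TPM in the control libraries, 14.1 and 10.2 TPM with the 5p duplex, and 9.30 and 11.9 TPM with the 3p.1 duplex. IFI27 stood at 98.9 and 288 TPM in the control libraries, 15.3 and 16.3 TPM with the 5p duplex, and 14.1 and 14.6 TPM with the 3p.1 duplex. Means of IFI6 and IFI27 were 13.2-fold and 12.8-fold lower, each with a limma adjusted p of 0.0781. BST2 (tetherin, which holds budding virions at the cell surface) stood at 28.5 and 105 TPM in both control libraries and 3.96 to 6.44 TPM with the duplexes. MX2, a GTPase that blocks nuclear entry of HIV-1, stood at 44.0 and 174 TPM in both control libraries and 7.21 to 11.4 TPM with the duplexes.

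**Figure D2:**
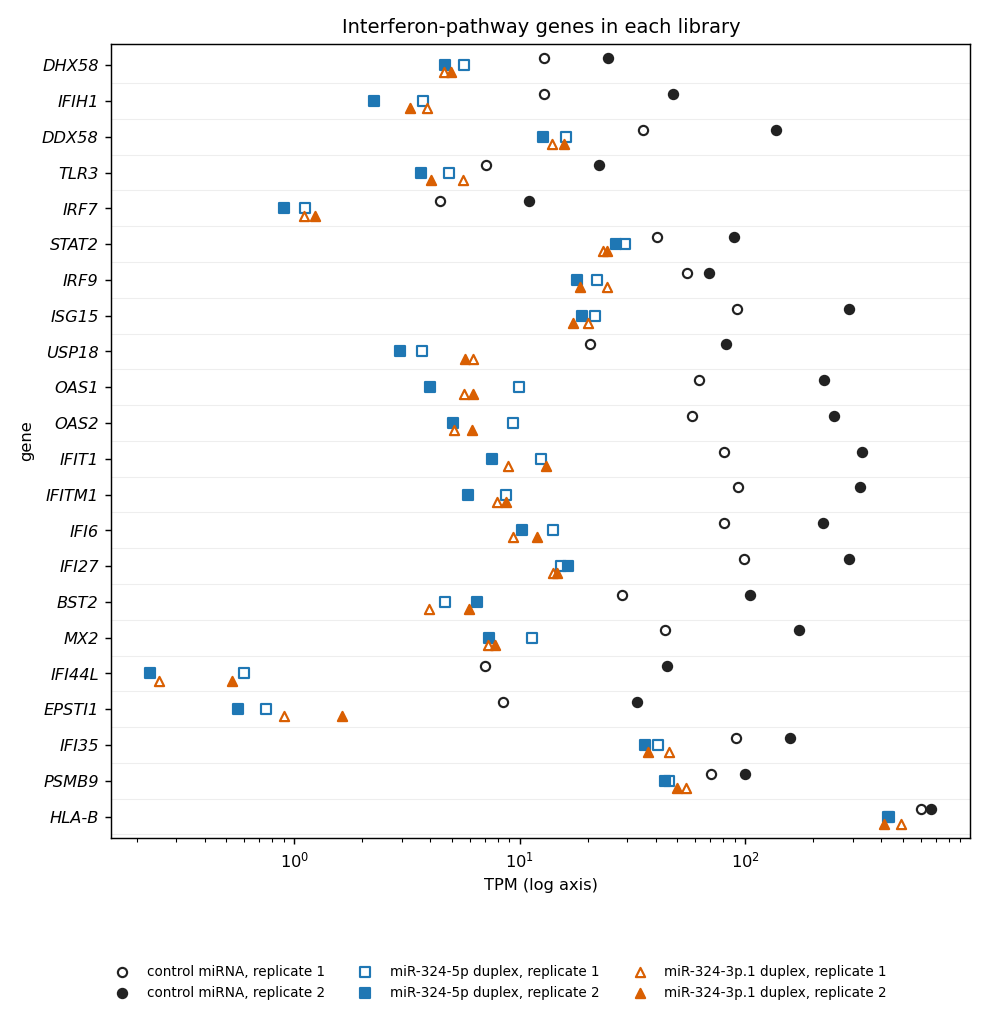
TPM of 22 interferon-pathway genes (log axis) in each library, ordered from sensors at the top to effectors and antigen presentation at the bottom; circles are control miRNA, squares the 5p duplex and triangles the 3p.1 duplex, open for replicate 1 and filled for replicate 2. Every circle lies to the right of the squares and triangles of its row; for OAS1 the circles stand at 62.3 and 224 TPM and the other 4 points between 4 and 9.96 TPM.

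Of 28 other interferon-stimulated genes, 27 stood lower in all 4 duplex libraries (96.4%) and TMEM140 alone overlapped; TMEM140 was named after its value was seen. The list's median log2 difference was -1.34. IFI44L, whose function is poorly defined, stood at 6.99 and 45.01 TPM in both control libraries and at 0.23 to 0.60 TPM with the duplexes. Both its controls stood more than 10-fold above the highest duplex library, although they differed from each other by 6.44-fold. EPSTI1 stood at 8.39 and 33.0 TPM in the control libraries, 0.75 and 0.56 TPM with the 5p duplex, and 0.90 and 1.63 TPM with the 3p.1 duplex. CMPK2, a mitochondrial nucleotide kinase, stood at 17.9 and 64.3 TPM against 2.30 to 4.90 TPM. IFI44, IFI35 and PARP10 had means 4.56-fold, 3.10-fold and 2.37-fold lower with the duplexes.

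Genes of antigen presentation by MHC class I stood lower in most cases. Of 17 measured, 13 stood lower (76.5%) and 0 higher, and the median log2 difference was -0.39. HLA-B, a class I heavy chain, stood at 600.1 and 669 TPM in both control libraries and at 412 to 490.3 TPM with the duplexes. The heavy chain genes are alike in sequence, so the authors' counting could split reads among them. HLA-F and HLA-E stood lower by 0.97 and 0.46 on the log2 scale. The immunoproteasome subunit PSMB9 stood at 70.7 and 100.0 TPM in the control libraries, 45.9 and 44.2 TPM with the 5p duplex, and 54.6 and 49.6 TPM with the 3p.1 duplex. PSMB10 and the proteasome activator PSME2 had nearly equal controls, 28.6 and 25.4 TPM for PSMB10 and 334 and 331 TPM for PSME2. Their duplex libraries stood at 16.9 to 20.3 TPM and 207 to 258 TPM. B2M, the class I light chain, was separated by a narrow margin: its lower control stood at 3323 TPM and its highest duplex library at 3278 TPM.

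The measured NF-kB targets and inflammatory cytokines, the other arm of signalling downstream of the sensors, stayed near the background. The list names 22 genes, and those with a mean under 1 TPM were not assessed. Of 11 measured, 1 stood lower (9.09%) and 0 higher, and the median log2 difference was -0.02 (0.01 and 0.04 under the 2 other scalings). The gene that stood lower, TNFSF10, encodes the death ligand TRAIL and is also interferon-inducible. It stood at 4.31 and 13.6 TPM in the control libraries, 0.81 and 0.40 TPM with the 5p duplex, and 1.2 and 1.15 TPM with the 3p.1 duplex. CCL5 stood at 9.45 and 15.9 TPM in the control libraries and overlapped the duplex range of 7.76 to 10.3 TPM. CCL2 overlapped at 110 and 66.3 TPM in both control libraries and 43.9 to 102 TPM with the duplexes. SOD2, TNFAIP3 and CD274 differed by -0.04, 0.13 and 0.08 on the log2 scale, all with overlap.

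**Figure D3:**
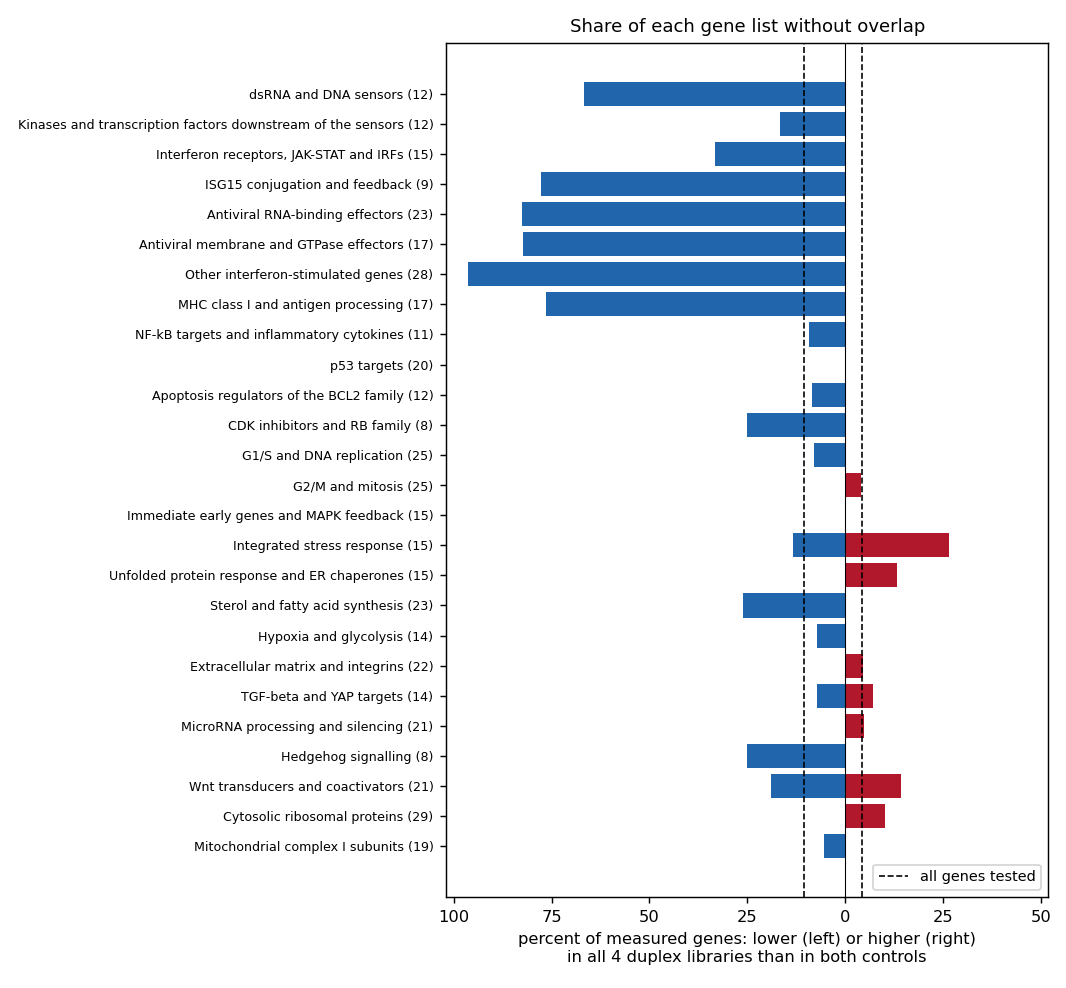
Percent of the measured genes of each list (number in brackets) that stood lower (left, blue) or higher (right, red) in all 4 duplex libraries than in both controls; dashed lines mark the shares over all genes tested, 10.6% and 4.29%. Bars reach 96.4% for other interferon-stimulated genes and stay at or under 26.1% on the left for lists outside the interferon pathway.

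Promoters of these genes were read for a motif because interferon-stimulated genes are known to carry response elements bound by the STAT and IRF complex. The letters searched were GAAANNGAAA, on both strands, in the RefSeq window of 250 bases before to 50 bases after each gene's start (GRCh38.p14). The motif was found in 3.57% of 35116 promoters in the table and in 2.86% of the 10495 promoters of tested genes. Among members that stood lower it was found in 88 of 1088 promoters (8.09%), and among higher members in 8 of 463 (1.73%). Of members at least 2-fold lower, 34 of 56 held it (60.7%). Effector promoters held it in 32 of 52 cases (61.5%), MHC class I promoters in 9 of 14 (64.3%) and sensor promoters in 3 of 9 (33.3%). The list of receptors, JAK, STAT and IRF genes held it in 0 of 12, and p53 targets in 1 of 16 (6.25%). A match is a description of these letters and not a bound site. The promoters below belong to IFITM1, IFI27 and ISG15, members with large differences in 2 roles (membrane effectors and the ubiquitin-like modifier), and capitals mark every match. IFITM1 lies at chr11:313790-314089 and IFI27 at chr14:94110486-94110785, and ISG15 lies at chr1:1013247-1013546, all on the plus strand. In the ISG15 promoter 2 overlapping matches form 1 run of capitals.
IFITM1: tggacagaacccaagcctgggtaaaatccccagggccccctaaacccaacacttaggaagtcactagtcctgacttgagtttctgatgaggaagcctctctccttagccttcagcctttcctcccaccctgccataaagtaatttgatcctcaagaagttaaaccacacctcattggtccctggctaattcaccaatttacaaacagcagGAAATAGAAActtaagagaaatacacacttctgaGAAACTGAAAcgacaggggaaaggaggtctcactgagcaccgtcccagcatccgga
IFI27: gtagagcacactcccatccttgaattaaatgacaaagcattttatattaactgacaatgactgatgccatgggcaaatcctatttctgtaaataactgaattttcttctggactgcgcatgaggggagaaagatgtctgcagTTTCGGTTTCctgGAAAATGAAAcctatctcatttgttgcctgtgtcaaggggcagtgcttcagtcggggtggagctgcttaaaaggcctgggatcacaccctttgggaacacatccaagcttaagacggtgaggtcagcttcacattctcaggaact
ISG15: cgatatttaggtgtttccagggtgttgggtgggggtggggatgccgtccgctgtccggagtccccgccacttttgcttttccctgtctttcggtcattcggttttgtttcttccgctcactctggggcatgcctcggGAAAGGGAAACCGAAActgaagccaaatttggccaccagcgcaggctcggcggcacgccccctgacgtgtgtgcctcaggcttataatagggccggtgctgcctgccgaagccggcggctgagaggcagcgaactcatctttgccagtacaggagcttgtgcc

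The 3 windows differ in where the letters lie. The first match starts 40 bases before the annotated start in IFITM1, 108 bases before it in IFI27 and 113 bases before it in ISG15. In IFI27 the first match reads on the minus strand and the second on the plus strand. The IRF9, OAS1, IFI35 and CMPK2 windows hold no match. Only the letters GAAANNGAAA were searched, so GAAA repeats at another spacing were not counted.

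The duplexes were also compared with each other. The difference itself does not use the controls, but its SE and p come from a spread estimated over all 6 libraries, controls included. For the 95 interferon members the median size of the log2 difference between 5p duplex and 3p.1 duplex was 0.11, and the values ran from -0.69 to 0.60. That median size was 0.098 over all 1424 lower members and 0.057 over the 575 higher members, so a small difference was not particular to interferon genes. None of the 133 interferon-list genes passed between the duplexes at a limma adjusted p under 0.05 (0 of 133), and 6 had an unadjusted p under 0.05. Over all genes 47 were lower with the 5p duplex (0.351%) and 11 were higher (0.0821%), and 1252 genes had an unadjusted p under 0.05. The controls stood far apart in many interferon genes, and that spread enters the SE of this contrast. The count of 0 therefore cannot decide whether the duplexes differed on these genes. A p that misses the threshold does not show that the duplexes acted alike on them. For IFITM1 the log2 difference between the duplexes was -0.19 (SE 0.53).

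**Figure D4:**
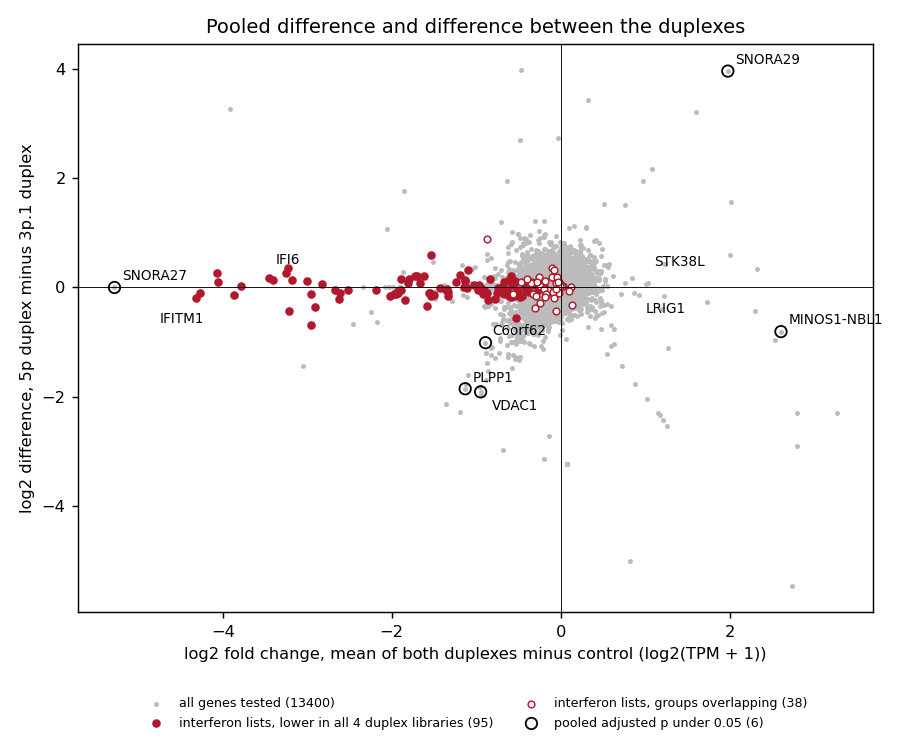
Log2 difference of the pooled duplexes from control (x axis, log2(TPM + 1)) against the log2 difference of the 5p duplex from the 3p.1 duplex (y axis) for 13400 genes, with interferon-list genes in red and the 6 genes called in the pooled contrast ringed. Interferon members lie along the horizontal line from -4.32 towards 0, while PLPP1, VDAC1 and C6orf62 lie below it.

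The 3 protein-coding genes that fell in the pooled contrast did so mainly through the 5p duplex. PLPP1, a membrane phosphatase that acts on lysophosphatidic acid and related lipids, stood at 36.7 and 32.7 TPM in the control libraries, 7.78 and 7.34 TPM with the 5p duplex, and 30.5 and 29.2 TPM with the 3p.1 duplex. C6orf62 stood at 232 and 256 TPM in the control libraries, 94.98 and 89.4 TPM with the 5p duplex, and 185 and 188 TPM with the 3p.1 duplex. VDAC1, a channel protein that carries metabolites across the outer membrane of mitochondria, stood at 597 and 561 TPM in the control libraries, 159 and 149 TPM with the 5p duplex, and 604 and 559 TPM with the 3p.1 duplex. For PLPP1 and C6orf62 all 4 duplex libraries lay below both controls, whereas the VDAC1 level with the 3p.1 duplex overlapped them, so VDAC1 is no member. Pooled log2 differences were -1.13 (SE 0.09) for PLPP1, -0.95 (SE 0.08) for VDAC1 and -0.89 (SE 0.08) for C6orf62, with limma adjusted p of 0.0315, 0.0315 and 0.0371. Their log2 differences between the duplexes were -1.85, -1.91 and -1.01, with limma adjusted p of 0.00561, 0.00256 and 0.0227. Each of the 3 pooled calls was kept in 1 of the 6 fits that left out a library (limma adjusted p up to 0.121 in the others), and all 3 kept their direction in each of the 6. With the duplexes as 1 group none of the 3 was called (limma adjusted p of 0.889 for PLPP1, 0.907 for VDAC1 and 0.724 for C6orf62), since the difference between the duplexes then counts as spread. That fit called 5 genes lower and 2 higher, and shared only SNORA27 with the calls of the 3-group model.

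Other members were also split between the duplexes. In all, 10 of 1424 lower members and 0 of 575 higher members passed between the duplexes, beside 58 of all 13400 genes tested. Each of the 10 was lower with the 5p duplex, as were 47 of the 58. SYNGR2, a vesicle membrane protein, stood at 85.1 and 86.6 TPM in the control libraries, 28.0 and 34.3 TPM with the 5p duplex, and 75.5 and 73.3 TPM with the 3p.1 duplex. SREBF2, the transcription factor of sterol synthesis, stood at 29.04 and 31.3 TPM in the control libraries, 12.4 and 12.6 TPM with the 5p duplex, and 23.9 and 27.6 TPM with the 3p.1 duplex. In both genes the 3p.1 libraries lay between the 5p libraries and the controls. In the pooled contrast both had a limma adjusted p of 0.109, and of 0.0317 with replicate numbers as a block. The remaining members of the 10, named after their values were seen, were C16orf87, POLDIP3, TMEM141, UBE2O, USP6NL and VPS25, with log2 differences between the duplexes from -1.05 (C16orf87) to -0.73 (POLDIP3).

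Members that stood higher differed by small amounts. Between the duplexes 0 of the 575 passed, beside 58 of all 13400 genes tested, a share too low for the 0 to mark them out. STK38L, a kinase of the NDR family linked to Hippo signalling, stood at 12.02 and 11.7 TPM in the control libraries, 27.7 and 23.5 TPM with the 5p duplex, and 24.98 and 23.97 TPM with the 3p.1 duplex. LRIG1, a membrane protein that restrains EGFR signalling, stood at 20.3 and 23.2 TPM in the control libraries, 41.7 and 38.4 TPM with the 5p duplex, and 45.6 and 43.0 TPM with the 3p.1 duplex. In both genes the controls lay close together and well below all 4 duplex libraries. STK38L was 2.11-fold higher on average (log2 difference 1.02, SE 0.10, limma adjusted p = 0.0615) and LRIG1 1.94-fold higher (0.92, SE 0.09, limma adjusted p = 0.0657). Between the duplexes STK38L differed by 0.06 (SE 0.11) and LRIG1 by -0.14 (SE 0.11) on the log2 scale. NUP93, a nuclear pore scaffold protein, stood at 52.2 and 68.2 TPM in both control libraries and at 103 to 118 TPM with the duplexes. NAA20, the catalytic subunit of an N-terminal acetyltransferase, stood at 169 and 166 TPM against 229 to 253 TPM. SEC62, part of the machinery that moves proteins into the endoplasmic reticulum, stood at 47.9 and 55.0 TPM against 72.6 to 80.1 TPM. PYGO2, a Wnt coactivator, and the long non-coding RNA LINC-ROR had means 1.39-fold and 1.48-fold higher. None of these 7 genes passed at an adjusted p under 0.05 in limma (0 of 7). They were named for their small unadjusted p, so that all 7 lie under 0.05 follows from the choice. With the duplexes as 1 group STK38L (adjusted p = 0.0308) and LRIG1 (0.0458) were called higher. With replicate numbers as a block STK38L, LRIG1, NUP93, NAA20 and PYGO2 were called higher, at adjusted p from 0.0146 to 0.0499.

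**Figure D5:**
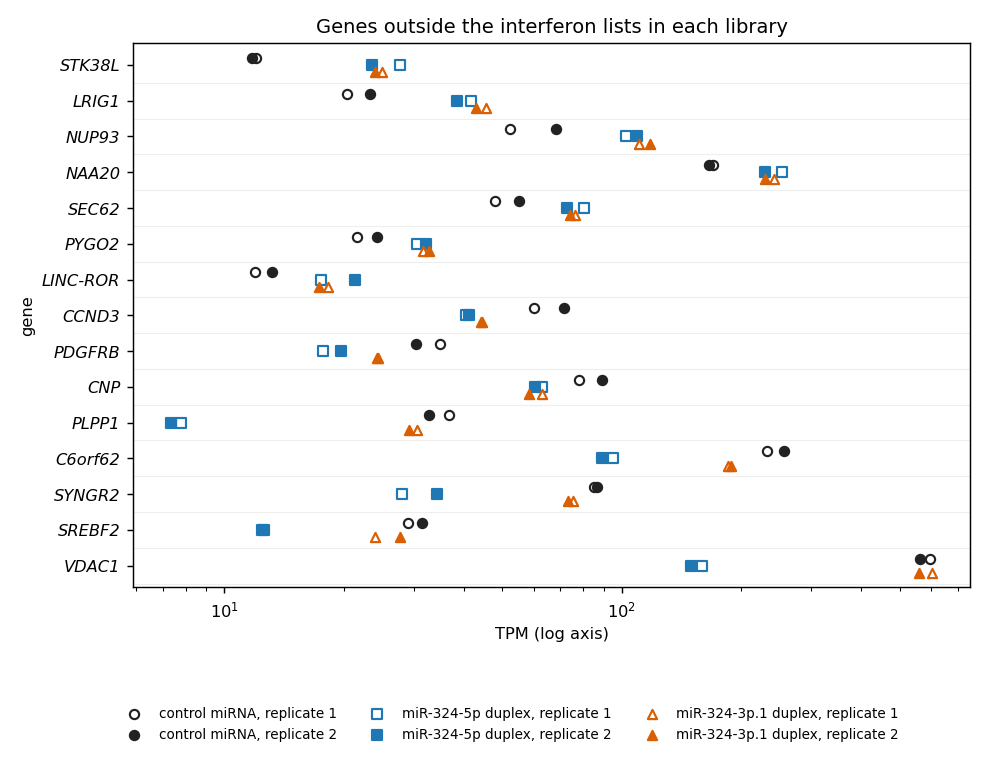
TPM of 15 genes outside the interferon lists (log axis) in each library; circles are control miRNA, squares the 5p duplex and triangles the 3p.1 duplex, open for replicate 1 and filled for replicate 2. In the top 7 rows the duplex points lie to the right of the controls, and in PLPP1 to VDAC1 the squares lie far to the left of the triangles.

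Lower members outside the interferon lists were named as the leading genes of their lists, and those lists were near the background of 10.6% in several cases. Lower were 2 of 25 genes of G1/S (8%), 1 of 14 of TGF-beta and YAP targets (7.14%), 1 of 9 fibroblast and pericyte markers (11.1%) and 1 of 10 glial markers (10%), beside 2 of 8 CDK inhibitor and RB family genes (25%) and 4 of 21 Wnt genes (19%). CCND3, a D-type cyclin, stood at 60.0 and 71.7 TPM in the control libraries, 40.5 and 41.3 TPM with the 5p duplex, and 44.3 and 44.4 TPM with the 3p.1 duplex (log2 difference -0.61, SE 0.09, limma adjusted p = 0.125, and 0.0414 with the replicate block). PDGFRB, a receptor for platelet-derived growth factor, stood at 34.8 and 30.3 TPM in the control libraries, 17.8 and 19.7 TPM with the 5p duplex, and 24.1 and 24.3 TPM with the 3p.1 duplex. TGFBR2, a TGF-beta receptor, stood at 145 and 130 TPM in both control libraries and 87.3 to 119 TPM with the duplexes. The groups of all 3 genes were separate, and each stood lower with the 5p duplex than with the 3p.1 duplex, with limma adjusted p of 0.839, 0.375 and 0.193 for that difference. CNP, an enzyme of myelin-forming glia, stood at 77.8 and 89.0 TPM against 58.3 to 62.9 TPM. The cyclin-dependent kinase inhibitor CDKN1B stood at 21.8 and 19.9 TPM against 14.2 to 17.8 TPM, and the Wnt coactivator BCL9 at 9.24 and 7.40 TPM against 3.95 to 6.61 TPM. Beyond the interferon and NF-kB lists, 18 members stood at least 2-fold lower, and interferon-inducible genes missing from those lists may be among them.

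Other lists outside the interferon pathway ran from none to 26.1% lower and from none to 26.7% higher. Over all genes tested the shares were 10.6% lower and 4.29% higher. The lists are short, so a few genes set each share, and no test was run. Of 20 p53 targets 0 stood lower and 0 higher, and of 15 immediate early and MAPK feedback genes likewise 0 and 0. Unadjusted p under 0.05 in limma was reached by 0 of the p53 targets and 1 of the immediate early genes, SPRY2, which overlapped. For genes of mitosis (G2/M) the counts were 0 lower and 1 higher of 25; the higher gene was the kinesin KIF20A, at 157 and 165 TPM in both control libraries and 181 to 199 TPM with the duplexes. Genes of sterol and fatty acid synthesis stood lower in 6 of 23 cases (26.1%), with a median log2 difference of -0.19; SCD, the stearoyl-CoA desaturase, overlapped and differed between the duplexes (log2 -1.29, limma adjusted p = 0.0482). Integrated stress response genes were the list with most higher members, 4 of 15 (26.7%, against 4.29% of all genes tested), beside 2 lower. These 4, named after their values were seen, were ATF4, ASNS, PSAT1 and PPP1R15A, with log2 differences of 0.06, 0.20, 0.11 and 0.31. Hedgehog signalling held 2 lower of 8 measured (25%): GLI3 stood at 6.99 and 7.6 TPM in both control libraries and 4.73 to 5.57 TPM with the duplexes, and BOC at 6.88 and 5.21 TPM against 3.83 to 5.17 TPM. Of 29 cytosolic ribosomal protein genes 3 stood higher (10.3%), among them RPL7A and RPS6 with log2 differences of 0.17 and 0.18. Higher members were also 3 of 21 Wnt genes (14.3%) and 2 of 15 genes of the unfolded protein response (13.3%). In the microRNA machinery 0 of 21 stood lower and 1 higher. DICER1, which cuts the hairpin, stood at 19.7 and 24.97 TPM in both control libraries and 22.9 to 25.8 TPM with the duplexes. AGO2, the Argonaute that cleaves targets, stood at 8.67 and 15.5 TPM against 9.16 to 13.1 TPM, and its log2 difference of -0.09 turned to 0.01 under quantile normalization.

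Markers were read to place the line and to look for other cells. Of 15 glioblastoma and glial markers 10 were measured, with a summed level of 5892 to 6768 TPM in both control libraries and 6202 to 6964 TPM with the duplexes. GFAP, the astrocyte filament, was close to absent at 0.05 to 0.25 TPM in the 6 libraries. For blood and endothelial cells 3 of 13 markers were measured, 4 were listed at 0 in every library, and the sums were 62.02 to 66.34 TPM in both control libraries and 42.7 to 69.4 TPM with the duplexes. PTPRC (CD45), a leukocyte marker, was among the 3, at 5.52 to 7.48 TPM in all 6 libraries. Epithelial markers, 7 of 12 measured, summed to 1225 to 1243 TPM in both control libraries and 948 to 1381 TPM with the duplexes. Most of that sum was KRT18 (612 to 858 TPM over the 6 libraries), while EPCAM stood at 1.23 to 3.01 TPM. Neuron markers, 4 of 12 measured, summed to 577 to 585 TPM and 485 to 624 TPM. Most of it was NEFL and TUBB3, while RBFOX3 stood at 0.13 to 0.27 TPM and 7 of the 12 stayed under 1 TPM in every library. Fibroblast and pericyte markers summed to 1319 to 1744 TPM and 1121 to 1739 TPM. All 5 sums overlapped between the groups.

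Small RNAs and read-through transcripts were 12 of the 13 members at least 2-fold higher and 1 of the 74 at least 2-fold lower. The libraries were selected for poly(A) tails, and small RNAs are recovered poorly from such libraries. SNORA27 was listed at 53.1 and 27.0 TPM in both control libraries and at 0 in all 4 duplex libraries (limma adjusted p = 0.00605). SNORA29 was listed at 12.3 and 17.1 TPM with the 5p duplex and at 0 in the other 4 libraries (limma adjusted p = 0.0315), so it is no member; the calls of SNORA27 and SNORA29 were kept in 6 and 3 of the 6 fits that left out a library. A 0 in a file without counts can be a failed estimate, and no fold is given for either. RNU1-1, a gene of the U1 spliceosomal RNA, stood at 6.86 and 9.30 TPM in the control libraries, 28.2 and 19.5 TPM with the 5p duplex, and 15.55 and 19.03 TPM with the 3p.1 duplex. The same values were deposited for RNU1-2, RNU1-3, RNU1-4, RNVU1-18 and RNVU1-7, so these 6 members are 1 measurement shared among near-identical copies. MINOS1-NBL1, a read-through transcript, rose from 0.89 and 0.51 TPM to 6.08 and 7.56 TPM with the 5p duplex and 10.5 and 15.1 TPM with the 3p.1 duplex (limma adjusted p = 0.0315), a call kept in 5 of those 6 fits. Its partner NBL1 stood at 13.2 and 13.7 TPM in the control libraries, 0.42 and 2.06 TPM with the 5p duplex, and 3.03 and 1.73 TPM with the 3p.1 duplex. Both share sequence, and their sum was 14.1 and 14.2 TPM in the control libraries, 6.50 and 9.62 TPM with the 5p duplex, and 13.5 and 16.9 TPM with the 3p.1 duplex. The sum with the 3p.1 duplex overlapped the controls.

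Matches to the seeds were counted in annotated 3′ untranslated regions, since the labelled treatments are microRNA duplexes. A match was the reverse complement of bases 2 to 8, with or without the A that completes an 8mer, in the longest 3′ untranslated region of GENCODE 29 (12000 of 13400 tested genes matched). The 5p match, GGGATGC, was found in 8.75% of all matched genes, in 13.1% of lower members (169 of 1291) and in 4.0% of higher members (21 of 525). The 3p match, GCAGTGG, was found in 24.2%, 25.2% and 23.4%. Median lengths of the regions were 1354, 1329 and 1494 bases, so length differed little between these sets. Members at least 2-fold lower, most of them interferon genes, held the 5p match in 7.04% of 71 cases and the 3p match in 18.3%, in regions with a median of 943 bases. Among the 10 lower members that differed between the duplexes, 5 held a 5p match and 3 a 3p match. Because the 3p.1 duplex may start at another base, 2 shifted starts of the 3p arm were added with the data known. A start 1 base further gave matches (GGCAGTG) in 16.5% of all genes, 21.3% of lower and 14.1% of higher members. A start 3 bases further (GGGGCAG) gave 19.4%, 24.9% and 10.5%. Of the 10 members that differed between the duplexes, 5 and 4 held these shifted matches. Which start the transfected duplex has is not given in the labels.

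The sites below show the matches of VDAC1, the called gene with a 5p 8mer, and of SYNGR2, a lower member with a match to either arm. Capitals mark the match, given with 11 bases on either side on the strand of the gene (GRCh38). The VDAC1 site lies at chr5:133972676-133972683 on the minus strand, from base 88 of a region of 856 bases. The SYNGR2 5p site lies at chr17:78172681-78172687 and its first 3p site at chr17:78172218-78172224, both on the plus strand, in a region of 1830 bases.
VDAC1 5p 8mer: gttgtatgtctGGGATGCAagtattgctaa
SYNGR2 5p 7mer: atgcccggcctGGGATGCtgtttggagac
SYNGR2 3p 7mer: cagccccgcctGCAGTGGctagaagccag

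PLPP1 and C6orf62, both called lower, hold no match to either arm in the regions read, nor do IRF9, IFITM1, IFI27 and ISG15. OAS1 holds a 5p 8mer and IRF2 a 3p 8mer, while IFI6, IFIT1, DDX58, USP18, STAT2 and TNFSF10 hold a 3p 7mer. Among the higher genes, NUP93, NAA20 and SEC62 hold a 3p 7mer and PYGO2 a 5p 7mer. Matches thus occurred on both sides of the comparison, though not equally for the 5p arm or for the shifted starts of the 3p arm. The 5p match was in 13.1% of lower and 4.0% of higher members, against 25.2% and 23.4% for the RefSeq 3p match. The shifted 3p matches were in 21.3% and 14.1% (1 base further) and in 24.9% and 10.5% (3 bases further).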

How the data were processed

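Per the labels' protocols, oligo-dT-enriched RNA of A172 cells was sequenced as stranded 100 bp pairs on a DNA nanoball platform in 6 libraries of 3 groups. The authors deposited 1 table of gene symbols with TPM per library. Per the submitters' processing notes RSEM and GRCh38 were used; which versions, annotation and aligner is not given in the sources used here. Deposited TPM has the same total in each library, so depth is unknown and neither a count test nor a counting interval was possible. Each table lists 18660 to 19070 symbols; 21 to 23 repeated symbols were summed, and unlisted symbols were taken as 0. Of 20979 symbols, 13400 with a mean of at least 1 TPM were tested as log2(TPM + 1), a scale that understates changes of low genes.

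Group means were fitted with limma 3.58.1 in R 4.3.3 (variance trend, 3 residual and 3.38 prior degrees of freedom). The pooled contrast was the mean of both duplexes minus control. Benjamini-Hochberg adjusted p-values are two-sided over all genes tested in a fit, 13400 in this model. Every adjusted p in the text comes from limma, and from this model unless the sentence names another fit. The other fits are those with replicate numbers as a block, with the duplexes as 1 group, or with a library left out. Standard errors come from the model, and folds of single genes are ratios of mean TPM. Replicate 2 minus replicate 1 correlated at 0.265 to 0.383 across genes in the 3 pairs of groups, so values with replicate numbers as a block stand beside the calls they change; the labels tie the numbers to no batch. An exact permutation test of 4 against 2 libraries cannot go below 0.133, so none was used for single genes. Members and gene lists were chosen with earlier results of these data known.

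Named were the called members, then members of mean 5 TPM or more with the smallest unadjusted p up to 8 places a direction, up to 6 genes of each interferon or NF-kB list, up to 2 of each other list, and IFNB1, IFNAR1, IRF9, ISG15, DICER1 and AGO2; a gene the rule also took is not reported here. Seeds came from RefSeq and 3′ untranslated regions from GENCODE 29, matched by symbol (11742 genes) or by an older symbol (258 genes).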

Additional observations from a re-analysis of the deposited data

Results flagged for a closer look

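Among the genes named for the pooled comparison, 10 differed between the 5p duplex and the 3p.1 duplex at a limma adjusted p under 0.05. Values are log2 differences, 5p duplex minus 3p.1 duplex, over 2 libraries each. Lower with the 5p duplex were VDAC1 (-1.91), PLPP1 (-1.85), AXL (-1.30), SCD (-1.29), SYNGR2 (-1.24), C6orf62 (-1.01) and SREBF2 (-0.98). Higher with the 5p duplex were SNORA29 (3.96), CLDN4 (1.08) and CNOT6 (0.90). AXL, a receptor tyrosine kinase, stood at 381 and 457 TPM in the control libraries, 167 and 197 TPM with the 5p duplex, and 439 and 460 TPM with the 3p.1 duplex, so the 5p duplex libraries stood below both controls and the 3p.1 duplex libraries overlapped them. CNOT6, a deadenylase subunit that acts in microRNA silencing, stood at 58.5 and 65.4 TPM in the control libraries, 66.3 and 59.2 TPM with the 5p duplex, and 32.6 and 33.7 TPM with the 3p.1 duplex. CLDN4, a tight junction protein, stood at 12.4 and 13.98 TPM in the control libraries, 21.8 and 27.4 TPM with the 5p duplex, and 11.1 and 10.9 TPM with the 3p.1 duplex. Groups of 2 libraries are too small to test for a single library far from the others.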

How the results depend on the processing

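With 2 libraries per group, single libraries decided the number of calls. When each library was left out in turn, between 1 and 100 genes were called lower (4 with all 6 libraries) and between 0 and 19 higher (2 with all 6). Without control replicate 1 there were 100 lower and 7 higher, and without control replicate 2 there were 10 and 0. Genes called between the duplexes numbered 5 to 26 in these fits against 58. Members numbered 1827 to 3888 lower and 825 to 2798 higher, since fewer libraries must be separated. With replicate numbers as a block, 100 genes were called lower, 10 higher and 278 between the duplexes. In the block fit 24 interferon-list genes were called lower and 0 of the 133 between the duplexes, and 33 lower members were called between the duplexes against 10. With the duplexes as 1 group 5 genes were called lower and 2 higher, with 1 call shared with the 3-group model. With no filter on low values the counts were 0 lower, 0 higher and 5 between the duplexes (1595 genes at an unadjusted p under 0.05 in limma, pooled contrast). Without a variance trend they were 1 lower and 5 between the duplexes. A pseudocount of 0.1 gave 1 gene higher, and median-of-ratios scaling gave 995 higher members. Counted as 8mers only, 5p sites were in 5.96% of lower and 0.762% of higher members (4 of 525), against 2.77% of all matched genes. The 3p sites were in 3.87% and 3.43%, against 4.44%. Starts of the 3p arm added after the data were known gave 21.3% and 14.1% (1 base further) and, for higher members, 10.5% (3 bases further).

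Log2 differences changed sign for 7 named genes near 0, all of which overlapped between the groups. Under quantile normalization AGO2 became 0.0072 and IFNAR1 0.0087, and under median-of-ratios scaling SOD2 became 0.0015 and IFNAR1 0.023. When 1 library was left out, values ran from -0.043 to 0.28 for DICER1, -0.17 to 0.0082 for KRT18, -0.084 to 0.35 for TNFAIP3, -0.47 to 0.30 for AGO2, -0.38 to 0.54 for CD274, -0.17 to 0.099 for SOD2 and -0.098 to 0.067 for IFNAR1, with 7 of these 10 changes of sign on removal of a control. Effector medians kept their sign in every fit, between -1.92 and -0.81. The causes were not tested. Since depth is unknown, values under 1 TPM are given without an interval.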

Other observations

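Genes outside the lists also stood lower in all 4 duplex libraries, with means at least 2-fold lower, and they were picked out after their values were seen. The lists need not hold every interferon-inducible gene, so a place outside them does not set a gene apart from the interferon pathway. LGALS9, a galectin of immune signalling, stood at 4.70 and 12.2 TPM in both control libraries and at 1.08 to 1.53 TPM with the duplexes. IDO1, a tryptophan-degrading enzyme, stood at 2.78 and 8.11 TPM against 0.74 to 1.34 TPM. CASP1, the protease of inflammasomes, stood at 5.23 and 8.64 TPM against 1.95 to 2.73 TPM. GMPR, a purine enzyme, stood at 9.33 and 20.6 TPM against 3.78 to 4.82 TPM. SLC15A3, a lysosomal peptide transporter, stood at 8.71 and 17.9 TPM against 3.45 to 4.34 TPM. In all 5 genes control replicate 2 was the higher control. Limma adjusted p ran from 0.142 (LGALS9) to 0.238 (IDO1), so none passed.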
